A study of Homo sapiens with 6 samples.

Results

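Histone genes were examined in RNAseq libraries of the A673/TR/shEF cell line. They were chosen by gene symbol: 73 clustered genes, whose symbols start with HIST1 to HIST4, and 16 replacement variant genes (H2AF and H3F3 symbols, H1F0, H1FX and H1FNT), together 89 of the 26364 symbols measured. The clustered genes comprised 6 linker histone H1 genes, 18 H2A, 20 H2B, 14 H3 and 15 H4 genes, of which 56 belonged to the HIST1 locus on chromosome 6, 13 to HIST2, 3 to HIST3 and 1 to HIST4. A673 is an established Ewing sarcoma cell line, and these cells also carry a tetracycline repressor and a doxycycline-inducible short hairpin RNA directed at the EWSR1::FLI1 fusion transcript. In 3 libraries no doxycycline was given (EWSR1::FLI1high), and in 3 libraries the cells received doxycycline at 1 µg/mL for 72 h (EWSR1::FLI1low). Both groups carried the hairpin, and all the cells derive from 1 cell line. No library with doxycycline but without the hairpin was analysed here, so the drug and the knockdown cannot be told apart. The samples are named as experiments in their titles and as clones in the design text, so p-values measure the spread between these samples, which may be technical.

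Histones package DNA: the H2A, H2B, H3 and H4 proteins form the nucleosome core, and H1 binds the linker DNA that enters and leaves it. The clustered genes are known as replication-dependent, because their mRNAs accumulate while DNA is copied in S phase and are degraded when it stops. Their mRNAs usually carry no poly(A) tail and end in a conserved stem-loop bound by SLBP, whereas the replacement variant genes usually have introns and polyadenylated mRNAs and are expressed outside S phase too. The libraries were made from total RNA depleted of ribosomal RNA, a procedure that keeps mRNAs without a poly(A) tail.

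The stem-loop is shown first because it separates the clustered genes from the variants. In the GENCODE annotation on GRCh37, 86 of the 89 genes were matched (HIST1H2BF, HIST1H2BG and HIST1H4F were not). All 67 clustered genes with an annotated coding sequence held a hairpin with a stem of 6 base pairs and a loop of 4 bases, beginning 23 to 68 bases after the stop codon. The search required a stem starting with GG and a loop starting with T, and it allowed G-T pairs. These starting letters were therefore set by the search. H2AFX was the 1 variant, of 15 with a coding sequence, that held it too. Among 19763 protein-coding genes searched in the same way in the 100 bases after the stop codon, 257 (1.30%) held such a hairpin. Of these, 191 were not among the histone genes chosen here. Below are the hairpins of the clustered gene with the lowest log2 fold change of FPKM + 1 (HIST1H2BM), of the H1 and H4 genes with the highest level (HIST1H1E and HIST1H4L), of a clustered gene whose levels overlapped between groups (HIST1H3E, chosen after its values were seen) and of H2AFX. They are written as DNA, 5′ to 3′ on the gene's strand, with both arms of the stem in capitals and 4 flanking bases on each side.
HIST1H2BM: caaaGGCTCTtttcAGAGCCgtcc
HIST1H1E: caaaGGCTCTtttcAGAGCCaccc
HIST1H4L: caaaGGCCCTtctcAGGGCCaccc
HIST1H3E: caaaGGCTCTtctcAGAGCCaacc
H2AFX: caaaGGCCCTtttaAGGGCCacca
The hairpins lie at chr6:27783247-27783262 (HIST1H2BM, plus strand), chr6:26157323-26157338 (HIST1H1E, plus strand), chr6:27840931-27840946 (HIST1H4L, minus strand), chr6:26225824-26225839 (HIST1H3E, plus strand) and chr11:118965608-118965623 (H2AFX, minus strand) of GRCh37, each in the 3′ UTR. The 14 H4 genes matched and H2AFX shared the stem arm GGCCCT, while 52 genes had GGCTCT and HIST1H2AK had GGTTCT. The loop was TTTC in 50 genes, TTTA in 10 and TTTT in 5. A loop with C as its second base was found only in HIST1H3E and HIST1H4L (TCTC) and HIST1H2BI (TCTA) among the 68 genes with the hairpin.

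Upstream sequences were compared because many clustered genes were lower together. RefSeq promoters (GRCh38.p14) were matched for 65 clustered and 13 variant genes, and the 250 bases before the start were searched on both strands. CCAAT was found before 55 of 65 clustered genes (84.6%) against 33.0% of 27305 promoters: it was present before all H1, H2A, H2B and H3 genes matched but before only 3 of 13 H4 genes. TATAAA was found before 43 clustered genes (66.2%, against 11.1% of all promoters). ATTTGCAT, the octamer bound by the Oct-1 factor POU2F1, was found before 11 of 16 H2A and 14 of 18 H2B genes, against 1.66% of all promoters, and AAACACA, known as the H1 box, before 6 of 6 H1 genes, against 4.95%. No motif contains another, but neighbouring motifs can share their end letters. Some H2A and H2B genes start head to head with 193 to 288 bases between their starts, so 1 motif can be counted for both. HIST1H3D and HIST1H2AD were matched to the same stretch. The counts are therefore not all of separate promoters. The 150 bases before the start are given for an H1 gene, for the H2B gene HIST1H2BM, and for H2AFZ, the most abundant variant, with motif letters on either strand in capitals.
HIST1H1C: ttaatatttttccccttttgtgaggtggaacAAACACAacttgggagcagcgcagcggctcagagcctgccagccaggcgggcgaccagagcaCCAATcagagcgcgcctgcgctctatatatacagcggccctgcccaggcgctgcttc
HIST1H2BM: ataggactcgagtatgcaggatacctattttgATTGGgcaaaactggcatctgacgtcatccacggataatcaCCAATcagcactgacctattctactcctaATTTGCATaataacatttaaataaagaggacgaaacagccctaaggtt
H2AFZ: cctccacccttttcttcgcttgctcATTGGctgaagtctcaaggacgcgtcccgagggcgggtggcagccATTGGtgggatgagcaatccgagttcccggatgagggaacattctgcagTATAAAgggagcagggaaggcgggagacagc
These stretches lie at chr6:26056471-26056620 (minus strand), chr6:27814872-27815021 (plus strand) and chr4:99950276-99950425 (minus strand) of GRCh38.p14. They describe the letters present and were not tested for function.

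The deposited values were FPKM, that is, fragments scaled to transcript length and to a factor per library, so levels can be compared between genes. This factor followed the median ratio of genes between libraries and not the total of reads on genes. Computed on the deposited values, the median-ratio factor was 1.0166 in all 6 libraries. The factor for total reads ran from 0.798 in EWSR1::FLI1low replicate 1 to 1.0971 in EWSR1::FLI1high replicate 3. Whole reads could be recovered for 100% of values, and the 6 libraries held between 6980361 and 16658933 of them. EWSR1::FLI1low libraries differed more from each other than EWSR1::FLI1high libraries did: the chi-square of reads per degree of freedom lay between 20.2 and 31.5 for pairs of the former and between 4.25 and 6.27 for pairs of the latter. FLI1, the fusion partner targeted through the chimeric mRNA, had FPKM values of 11.3, 12.7 and 14.2 in EWSR1::FLI1high replicates 1 to 3 and of 2.91, 4.29 and 3.68 in EWSR1::FLI1low replicates, a log2 fold change of -1.57 ± 0.18 (SE, limma adjusted p = 0.000676). Of 6 Ewing sarcoma cell markers, all 6 were detected and 4 (FLI1, NR0B1, NKX2-2 and STEAP1) were lower at an adjusted p under 0.01, against 3.37% of all genes tested. Of 8 markers of other cell types, 4 passed the filter on low values and none was called by limma (PECAM1 alone was higher at an unadjusted p under 0.05, adjusted p = 0.0333, and limma-voom on recovered reads called 1 higher). Their summed level, 55.4 to 86.8 FPKM in EWSR1::FLI1high and 46.8 to 127 in EWSR1::FLI1low, came mostly from KRT18 and CD68, while PTPRC, CD3E, VWF and ALB stayed under a mean FPKM of 0.5.

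Clustered histone genes were lower in EWSR1::FLI1low cells, with calls in H1 and in every core family, and none was called higher. Genes were tested with limma on log2(FPKM + 1) where the mean FPKM was at least 0.5, which 61 clustered and 10 variant genes passed, and a gene was called at an adjusted p under 0.01 over all 15504 genes tested. Of the 61 clustered genes, 29 (47.5%) were called lower, against 3.37% of all genes tested. None was called higher, against 4.51% of all genes (none at an unadjusted p under 0.05, and none with limma-voom). At an adjusted p under 0.05, 51 of 61 were lower, against 9.91% of all genes, and none was higher, against 9.87%. Of the 10 variants tested, 1 was called lower and none higher, with 3 lower at an adjusted p under 0.05. The median log2 fold change was -1.14 for clustered genes and -0.43 for variants, beside -0.05 for all genes tested. In 56 clustered genes every EWSR1::FLI1low library lay below every EWSR1::FLI1high library, a pattern seen in 23.6% of all genes tested. The count of calls moved with the libraries entered: it was 7, 3 and 3 without EWSR1::FLI1high replicates 1, 2 and 3, and 30, 11 and 45 without EWSR1::FLI1low replicates 1, 2 and 3, whereas the median stayed between -1.31 and -0.96. Fewer cells in S phase and less histone mRNA per cell cannot be told apart in bulk RNA.

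**Figure D1:**
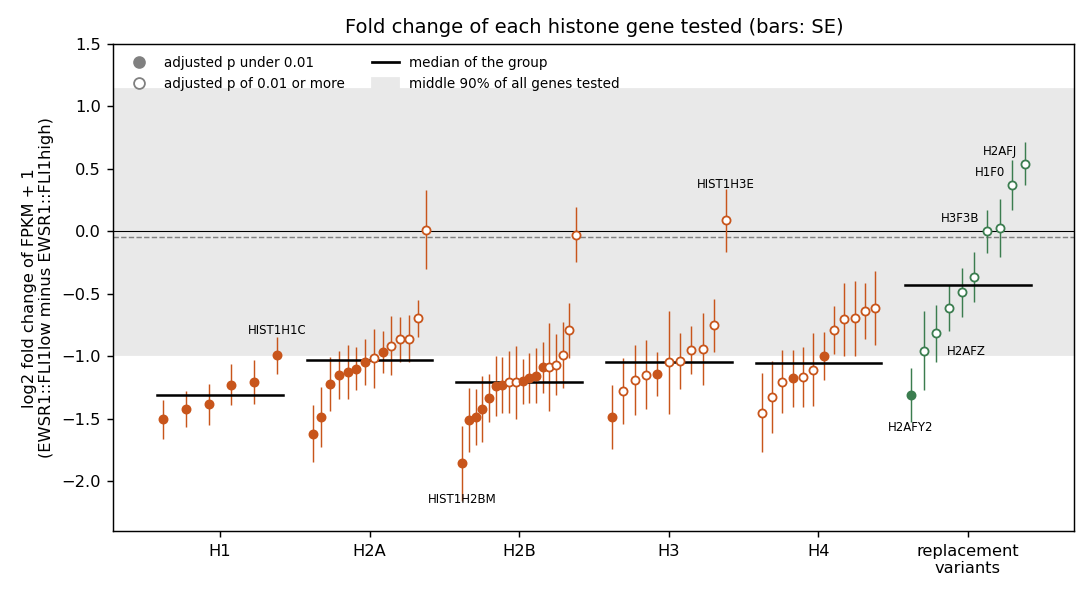
Log2 fold change of FPKM + 1 (vertical axis, EWSR1::FLI1low minus EWSR1::FLI1high) of the 61 clustered and 10 variant histone genes that passed the filter, by family; points are genes with their SE, filled where the adjusted p was under 0.01, thick lines are group medians, the dashed line is the median of all genes tested (-0.05) and the grey band their middle 90%. Most clustered genes lie between about -0.6 and -1.9, HIST1H3E and a pseudogene each of H2A and H2B lie near 0, and the variants spread from -1.31 to 0.54.

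Summed over the 73 clustered genes, FPKM was 9239, 9471 and 9054 in EWSR1::FLI1high replicates 1, 2 and 3 and 4104, 3469 and 5267 in the EWSR1::FLI1low replicates. The groups did not overlap, and the mean of the EWSR1::FLI1low libraries was 46.2% of that of the EWSR1::FLI1high libraries. In recovered reads, clustered genes received 5080, 5225 and 4588 reads per 1000000 in EWSR1::FLI1high and 2809, 1808 and 2594 in EWSR1::FLI1low. The variants summed to 778, 764 and 813 FPKM in EWSR1::FLI1high and to 440, 468 and 629 in EWSR1::FLI1low, which is 65.3% of the EWSR1::FLI1high mean. For each FPKM of variant mRNA there were thus 11.9, 12.4 and 11.1 FPKM of clustered mRNA in EWSR1::FLI1high and 9.32, 7.42 and 8.37 in EWSR1::FLI1low, without overlap between the groups.

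**Figure D2:**
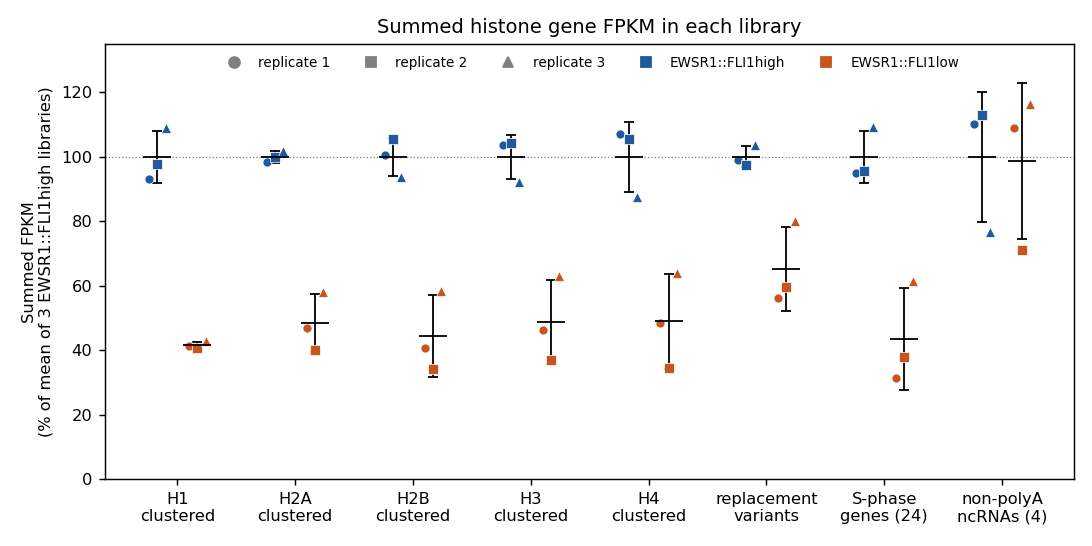
Summed FPKM of each clustered family, of the variants, of 24 S-phase genes and of 4 non-polyadenylated non-coding RNAs in each library (points; shapes are replicates), as a percentage of the mean of the 3 EWSR1::FLI1high libraries (vertical axis from 0); lines and bars are means ± SD of 3 libraries. Every clustered family in EWSR1::FLI1low lies between 34.2% and 64.1%, H1 shows the smallest spread (40.6% to 42.8%), and the non-coding RNAs overlap between groups.

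H1 genes showed the smallest spread between EWSR1::FLI1low libraries. All 6 were called lower, against 3.37% of all genes tested, with a median log2 fold change of -1.30 and a range from -1.50 to -0.99. Their sum in EWSR1::FLI1low was 41.6% ± 1.13 (SD, n = 3) of the EWSR1::FLI1high mean. HIST1H1T, 1 of the 6, lies within the annotated body of HIST1H2BC on the same strand, so its reads cannot be assigned with certainty. HIST1H1E, the H1 gene with the highest mean level, had FPKM values of 476, 518 and 542 in EWSR1::FLI1high and of 196, 192 and 183 in EWSR1::FLI1low (log2 fold change -1.42 ± 0.14, SE; adjusted p = 0.000356). Replicates within a group lay close together and the groups were far apart. HIST1H1D gave 219, 235 and 227 FPKM against 84.4, 73.3 and 81.2 (-1.50 ± 0.16, adjusted p = 0.000417), the lowest log2 fold change of FPKM + 1 among the H1 genes. HIST1H1C, which encodes H1.2 and can also yield a polyadenylated mRNA, gave 389, 396 and 473 FPKM against 210, 208 and 211 (-0.99 ± 0.15, adjusted p = 0.00269), the smallest fall of the 6. Its share of the clustered H1 FPKM was 26.3%, 25.5% and 27.4% in EWSR1::FLI1high and 31.9%, 32.3% and 31.0% in EWSR1::FLI1low. HIST1H1A, at 6.34, 5.30 and 6.78 FPKM against 1.44, 1.87 and 1.89 (-1.38 ± 0.17, adjusted p = 0.000785), showed the same pattern at a much lower level, and on FPKM without the added 1 its EWSR1::FLI1low mean was 28.2% of the EWSR1::FLI1high mean, against 35.1% for HIST1H1D. HIST1H1A, HIST1H1D and HIST1H1E were the only 3 of the 30 called histone genes that stayed called when any single library was left out; the other 27 lost the call in at least 2 of these 6 fits, each of which had 5 libraries in place of 6, and no called gene had a log2 fold change above -0.87 in any of them.

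**Figure D3:**
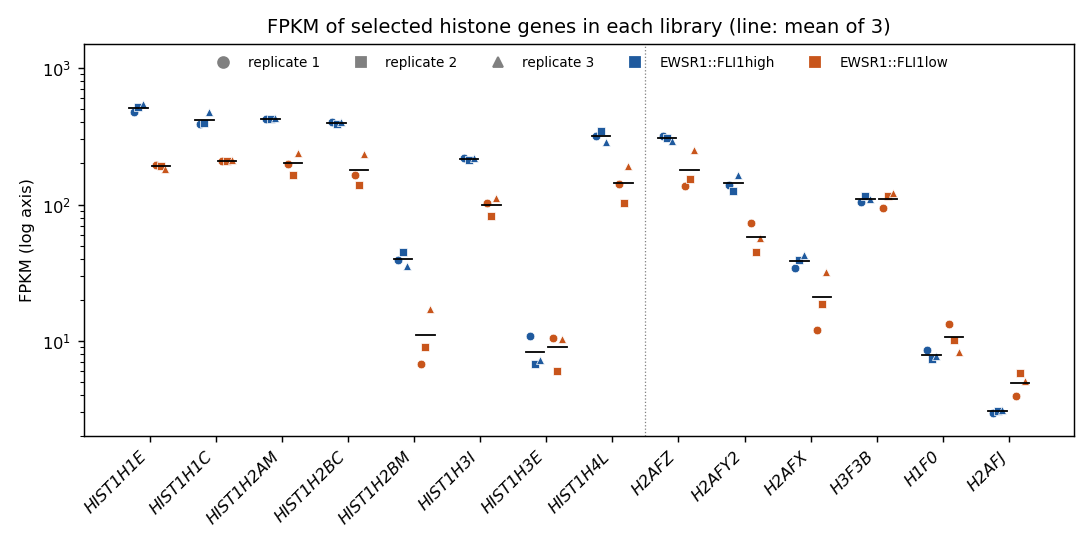
FPKM (log axis) of 8 clustered genes, left of the dotted line, and 6 variants, right of it, in each of the 3 EWSR1::FLI1high and 3 EWSR1::FLI1low libraries; shapes are replicates and lines are means. The groups separate in the clustered genes shown except HIST1H3E, and overlap in H3F3B and H1F0, while H2AFJ lies higher in all 3 EWSR1::FLI1low libraries.

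H2A genes were called lower in 8 of 14 tested (median -1.03) and H2B genes in 11 of 18 (median -1.20), against 3.37% of all genes tested. At an adjusted p under 0.05, 13 H2A and 16 H2B genes were lower, against 9.91% of all genes tested. HIST1H2AM, the most abundant H2A gene, had 426, 424 and 428 FPKM in EWSR1::FLI1high and 199, 164 and 239 in EWSR1::FLI1low (-1.10 ± 0.17, adjusted p = 0.0033). HIST1H2AL, at 200, 204 and 220 FPKM against 53.8, 58.9 and 95.03 (-1.62 ± 0.23, adjusted p = 0.00187), showed the largest fall of an H2A gene. HIST1H2AB fell from 131, 122 and 140 FPKM to 43.1, 34.5 and 66.2 (-1.48 ± 0.24, adjusted p = 0.00386). In these 3 genes the EWSR1::FLI1low replicate 3 was the highest of its group and still lay under every EWSR1::FLI1high library.

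HIST1H2BM gave the lowest log2 fold change of FPKM + 1 of the histone genes tested, with 39.5, 44.7 and 35.6 FPKM in EWSR1::FLI1high and 6.81, 9.02 and 17.3 in EWSR1::FLI1low (-1.86 ± 0.30, adjusted p = 0.00358). HIST1H2BO fell from 162, 146 and 146 FPKM to 46.5, 39.2 and 79.1 (-1.51 ± 0.26, adjusted p = 0.00471). HIST2H2BF, a gene of the HIST2 locus on chromosome 1, fell from 61.3, 68.8 and 51.4 FPKM to 19.92, 15.998 and 32.48 (-1.42 ± 0.27, adjusted p = 0.00729), and 59.3% of its 75-base exon windows occur elsewhere in the genome too, so that its reads may be shared with copies. HIST1H2BE was expressed at a low level, with 3.72, 4.04 and 3.26 FPKM against 1.29, 0.561 and 0.295 (-1.48 ± 0.22, adjusted p = 0.00257). On FPKM without the added 1 its EWSR1::FLI1low mean was 19.5% of the EWSR1::FLI1high mean, below the 27.6% of HIST1H2BM. Its EWSR1::FLI1low values rest on only 5, 2 and 2 recovered reads, so this rank is uncertain. HIST1H2BC, the most abundant H2B gene, had 404, 390 and 399 FPKM against 166, 140 and 234 (-1.17 ± 0.20, adjusted p = 0.005). Replicate 3 was the lowest EWSR1::FLI1low library for HIST1H2BE and the highest for the other 4 genes. For HIST1H2BE, replicates 2 and 3 held 2 reads each, so their order there is uncertain.

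H3 and H4 genes had medians like those of H2A (-1.05 for both) but fewer calls, 2 of 11 and 2 of 12, against 3.37% of all genes tested. At an adjusted p under 0.05, 8 H3 and 8 H4 genes were lower, against 9.91% of all genes tested. HIST1H3I, the most abundant H3 gene, had 220, 213 and 218 FPKM against 102, 82.0 and 112 (-1.14 ± 0.17, adjusted p = 0.00273). HIST1H3J fell from 20.9, 30.5 and 25.7 FPKM to 6.82, 6.89 and 12.6 (-1.48 ± 0.26, adjusted p = 0.00522), and its annotated body overlaps that of HIST1H2AM on the same strand, so reads from the overlap cannot be assigned with certainty. HIST1H4L, the most abundant H4 gene, had 320, 347 and 288 FPKM against 140, 102 and 191 (-1.17 ± 0.23, adjusted p = 0.00896), and it shares the loop TCTC with HIST1H3E. H4 levels varied most between libraries: the H4 sum of EWSR1::FLI1low replicate 3 was 1.85 times that of replicate 2, against 1.70 for H3, 1.71 for H2B, 1.44 for H2A and 1.05 for H1.

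HIST1H3E, singled out after its values were seen, had the highest fold change of the clustered genes. It had 10.9, 6.79 and 7.27 FPKM in EWSR1::FLI1high and 10.5, 6.07 and 10.4 in EWSR1::FLI1low, and the groups overlapped (log2 fold change 0.09, 95% interval -0.48 to 0.66, limma adjusted p = 0.844). The sign of this value was not stable: it was -0.29 with array quality weights, and -0.03, -0.03 and -0.02 without EWSR1::FLI1high replicate 2, EWSR1::FLI1low replicate 1 and EWSR1::FLI1low replicate 3. Other clustered genes at similar levels, HIST1H4J and HIST1H4K, had log2 fold changes of -0.61 and -0.70 that did not pass the test either (adjusted p = 0.18 and 0.126). The only other clustered genes tested with a log2 fold change above -0.6 were HIST1H2APS1 (0.01) and HIST2H2BC (-0.03), pseudogenes with mean FPKM values under 1. GENCODE annotates a second transcript of HIST1H3E that runs 1908 bases past the stop codon, beyond the hairpin shown above. Such long annotated transcripts, reaching 200 or more bases past the stop, were also present in other genes: the 13 tested clustered genes that have one had a median of -1.09, beside -1.15 for the 43 without. The 5 clustered genes listed as also giving polyadenylated mRNA, HIST1H1C, HIST1H2AC, HIST1H2BD, HIST1H2BK and HIST2H2BE, had a median of -1.04. Of them 4 were called lower, against 3.37% of all genes tested.

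The medians of the HIST1 stretches were close. HIST1 genes lay in 2 stretches of chromosome 6, chr6:25723625-26285866 and chr6:27093676-27861669 (GRCh37), separated by the largest gap between neighbouring members. Their medians were -1.15 over 28 genes tested and -1.18 over 21 genes tested. The 6 HIST2 genes tested on chromosome 1 had a median of -0.80, with 2 called lower, against 3.37% of all genes tested. They include the pseudogene HIST2H2BC (-0.03). In HIST2H2BF, HIST2H3D and HIST2H2BC, 59.3% to 78.7% of the 75-base exon windows occur elsewhere in the genome, so this median is less certain. Many H2A and H2B genes start head to head and share the sequence between them: 11 such pairs were found among the genes matched in GENCODE, with 193 to 288 bases between the starts. In 9 pairs both genes were tested, both log2 fold changes were below 0 in all 9, and both genes were called lower in 4. Of the 61 clustered genes tested, 59 lay below 0 and 29 were called lower, against 54.8% and 3.37% of all genes tested. Agreement in sign would therefore be found for most pairings of clustered genes, and unpaired genes were not compared. The 2 genes of a pair differed by a median of 0.22 on the log2 scale and by at most 0.89, between HIST1H2AJ (-0.96) and HIST1H2BM (-1.86), of whose shared sequence the 150 bases next to HIST1H2BM are shown above. In HIST1H2AJ 64.2% of the 75-base exon windows occur elsewhere in the genome too, and in HIST1H2BM none does, so reads of HIST1H2AJ may be shared with copies. Pairs with HIST1H2BF or HIST1H2BG, which were not matched, are left out of these counts. HIST1H2BG and HIST1H2AE, whose RefSeq promoters overlap on opposite strands, were both called lower, with log2 fold changes of -1.23 and -1.15.

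**Figure D4:**
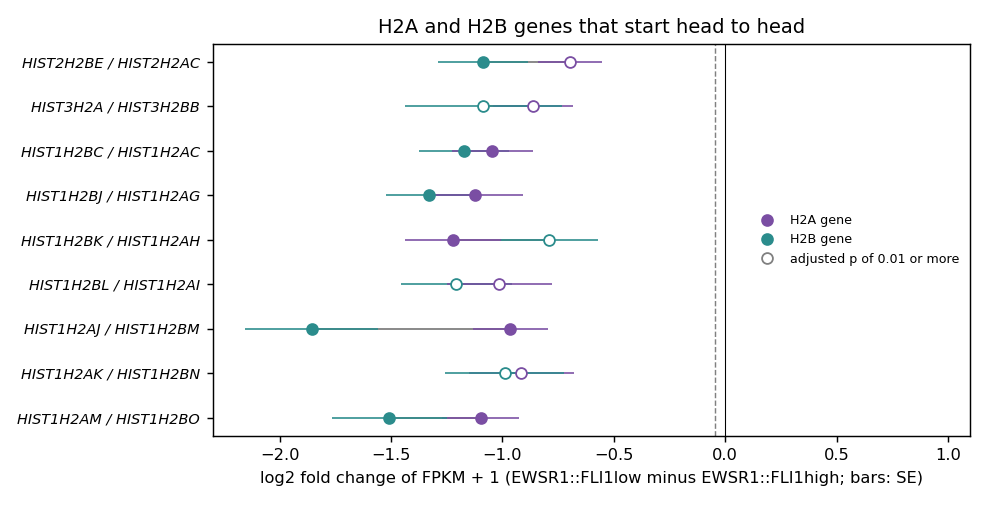
Log2 fold change of FPKM + 1 (horizontal axis, EWSR1::FLI1low minus EWSR1::FLI1high) of the H2A and H2B gene of each of 9 head-to-head pairs (rows); bars are SE, filled points have an adjusted p under 0.01 and the dashed line is the median of all genes tested (-0.05). All 18 genes lie below -0.6, and the widest gap is that of HIST1H2AJ and HIST1H2BM.

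The replacement variants split by gene. H2AFY2, which encodes the histone macroH2A2, was the variant called lower, with 140, 126 and 165 FPKM in EWSR1::FLI1high and 72.8, 45.2 and 56.4 in EWSR1::FLI1low (-1.31 ± 0.22, adjusted p = 0.00414). The call was lost when any library but EWSR1::FLI1low replicate 1 was left out (adjusted p up to 0.0303). H2AFY, which encodes macroH2A1, had 112, 107 and 129 FPKM against 70.1, 78.1 and 102 (-0.49 ± 0.20, adjusted p = 0.114). Values of both macroH2A genes did not overlap between groups, as in 23.6% of all genes tested. H2AFX, which encodes H2A.X, marked by phosphorylation at DNA breaks, and which carries the hairpin, had 34.1, 38.9 and 42.7 FPKM against 12.001, 18.5 and 32.1 (-0.95 ± 0.31, adjusted p = 0.0639). H2AFZ and H2AFV both encode H2A.Z, a variant found at promoters. H2AFZ had 316, 308 and 294 FPKM against 136, 153 and 249 (-0.82 ± 0.23, adjusted p = 0.037), and without EWSR1::FLI1low replicate 3 its log2 fold change was -1.08 and its adjusted p 0.00494. H2AFV had 41.0, 38.2 and 42.1 FPKM against 26.6, 29.2 and 39.0 (-0.36 ± 0.20, adjusted p = 0.229), and its groups overlapped.

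H3F3B, which encodes H3.3, the H3 variant deposited outside replication, had nearly equal means, with 105, 115 and 109 FPKM in EWSR1::FLI1high and 93.8, 115 and 122 in EWSR1::FLI1low (log2 fold change 0.00, 95% interval -0.39 to 0.39, adjusted p = 0.999). Its sister gene H3F3A was listed at 0 in all 6 libraries, and 89.9% of its 75-base exon windows occur more than once in the genome. H3F3C was near the filter, with means of 0.927 and 0.923 FPKM. H1F0, which encodes the H1.0 linker histone known from cells that have left the cell cycle, had 8.59, 7.38 and 7.70 FPKM against 13.4, 10.3 and 8.37 (0.37 ± 0.20, adjusted p = 0.221), with overlap between the groups. Its share of all H1 mRNA (clustered H1, H1F0 and H1FX) was 0.571%, 0.467% and 0.439% in EWSR1::FLI1high and 1.97%, 1.54% and 1.19% in EWSR1::FLI1low, and these shares did not overlap. The clustered H1 part of this total fell from a mean of 1587 to 660 FPKM, so the shares do not by themselves show a rise of H1F0. H1FX had 16.7, 19.0 and 18.9 FPKM against 10.1, 10.8 and 13.97 (-0.61 ± 0.19, adjusted p = 0.0472). H2AFJ, an H2A variant, was the 1 member with every EWSR1::FLI1low library above every EWSR1::FLI1high library, a pattern seen in 17.5% of all genes tested: it had 2.96, 3.08 and 3.10 FPKM against 3.93, 5.85 and 5.06 (0.54 ± 0.17, adjusted p = 0.0567).

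Of the 18 members that did not pass the filter, 11 were listed at 0 in every library: HIST2H2AA3, HIST2H2AA4, HIST2H3A, HIST2H3C, HIST2H4A, HIST2H4B, H3F3A, H3F3AP4, H2AFB1, H2AFB2 and H2AFB3. Between 85.4% and 100% of the 75-base exon windows of these 11 genes occur more than once in the genome. The other 7 (HIST1H2AA, HIST1H2AD, HIST1H2BA, HIST1H4G, HIST2H2BA, HIST3H3 and H1FNT) had mean values under 0.5 FPKM. Among genes tested, HIST1H4J and HIST1H4K had over 90% repeated windows and are uncertain for the same reason. In 38 tested clustered genes without any repeated window, the median was -1.15 and 19 were called lower, against 3.37% of all genes tested. In the 7 tested clustered genes with most of their windows repeated, the median was -0.75 and 2 were called lower.

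Genes that act on histones were read from lists for each step, 50 genes in 7 lists. NPAT, which drives histone gene transcription at histone locus bodies, had a log2 fold change of -0.41 (adjusted p = 0.183) and SLBP, the stem-loop binding protein, of -0.70 (adjusted p = 0.0782). Among the 14 genes of transcription and 3′ end processing none was called in either direction by limma (10 were lower and none higher at an unadjusted p under 0.05, and limma-voom called 1 lower), with a median of -0.57. Among 5 genes of histone mRNA decay none was called (none at an unadjusted p under 0.05, none with limma-voom), with a median of -0.27. Chaperones of replication-coupled deposition included 3 called lower of 6, against 3.37% of all genes tested, the share to set beside each list count here. CHAF1A, the large subunit of chromatin assembly factor 1, had 43.1, 47.3 and 56.2 FPKM against 10.8, 14.4 and 21.5 (-1.63 ± 0.25, adjusted p = 0.00303). CHAF1B, its middle subunit, had 28.0, 29.8 and 39.4 FPKM against 9.13, 9.31 and 15.7 (-1.46 ± 0.25, adjusted p = 0.00447). NASP, an H3-H4 chaperone, had 204, 239 and 261 FPKM against 85.7, 105 and 133 (-1.13 ± 0.20, adjusted p = 0.00617). These 3 calls were all lost without any single EWSR1::FLI1high library, while no log2 fold change in any leave-out was above -0.98; without EWSR1::FLI1low replicate 2 CHAF1B and NASP lost their calls too.

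None of the 6 H3.3 deposition genes (HIRA, UBN1, UBN2, CABIN1, DAXX and ATRX) was called (none at an unadjusted p under 0.05, none with limma-voom), and their median was -0.20. Of 8 H2A.Z exchange genes none was called (3 lower at an unadjusted p under 0.05, 2 with limma-voom), with a median of -0.38. The chaperone ANP32E, which removes H2A.Z, had the lowest value of these, -1.15 (adjusted p = 0.0138). Of 5 genes of the centromeric H3 variant, OIP5 was called lower (-1.53 ± 0.29, adjusted p = 0.00724, a call lost when any library but EWSR1::FLI1low replicate 3 was left out), and CENPA, the variant itself, had 31.5, 30.7 and 35.1 FPKM against 10.3, 13.6 and 24.6 (-1.05 ± 0.29, adjusted p = 0.034). Of 6 other histone chaperones none was called (4 lower at an unadjusted p under 0.05, 1 with limma-voom), with a median of -0.60.

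S-phase genes had a median fold change near that of the clustered histone genes. Of 24 listed, 12 were called lower (against 3.37% of all genes tested) and 21 were lower at an adjusted p under 0.05 (against 9.91%), with a median of -1.21 beside -1.14 for the clustered histone genes. PRIM1, a subunit of DNA primase, had 60.9, 63.6 and 63.1 FPKM against 15.8, 14.9 and 24.7 (-1.74 ± 0.22, adjusted p = 0.00102), and PCNA, the replication clamp, had 243, 249 and 250 FPKM against 86.7, 96.2 and 151 (-1.19 ± 0.22, adjusted p = 0.00716). The spread inside EWSR1::FLI1low followed different libraries in both groups of genes. Replicate 3 was the highest in 24 of 24 S-phase genes and in 55 of 61 clustered histone genes, but the lowest was replicate 1 in 22 of 24 S-phase genes and replicate 2 in 47 of 61 clustered histone genes. In the 50 genes of the histone-handling lists, replicate 3 was the highest in 39 and replicate 1 the lowest in 41. Replicate 1 also had the lowest FPKM summed over all genes, 255956 against 338343 and 359040 in replicates 2 and 3. These orders were not counted over all genes tested, so they may not be particular to S-phase genes. Non-polyadenylated non-coding RNAs, which like most clustered histone mRNAs are kept by depletion of ribosomal RNA, were also low in replicate 2. Summed over the 4 listed genes present (RMRP, RPPH1, TERC and SCARNA2) they gave 929, 955 and 648 FPKM in EWSR1::FLI1high and 918, 600 and 982 in EWSR1::FLI1low. None of the 4 was called (none at an unadjusted p under 0.05, none with limma-voom), and the groups overlapped. The part of this library difference in the histone values was not tested.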

How the data were processed

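Libraries were grouped by their titles, 3 EWSR1::FLI1high and 3 EWSR1::FLI1low. Total RNA was depleted of ribosomal RNA and sequenced in paired reads of 75 bases. The submitters' processing notes name STAR 2.5.0b, bedtools 2.17.0, Cufflinks 2.2.1 and DESeq2 1.6.3, with GRCh37. The authors deposited FPKM per gene symbol and library, without pooling. In a comparison table the authors also deposited a mean signal per gene (normalized counts averaged over libraries), used here to recover whole reads; its log2 fold change, standard error, score and p-value columns were not used. limma 3.58.1 (R 4.3.3, eBayes with trend) was applied to log2(FPKM + 1) of the 15504 genes whose mean FPKM reached 0.5, with Benjamini-Hochberg adjustment and calls at an adjusted p under 0.01. Fold changes on this scale understate the change of low genes. The procedure was tested on simulated data with independent noise and with fold changes larger than that of any histone gene. That test therefore does not cover changes of the size reported here.

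Members and gene lists were chosen with earlier results of these data known. The genes named were HIST1H1C, H2AFZ and H1F0, every variant tested, the 10 largest decreases and increases among called clustered genes, the most abundant clustered gene of each family, FLI1 and genes of the lists. Hairpins, exon windows and positions came from GRCh37 with GENCODE, promoters from RefSeq. Alternatives were another pseudocount, 2 filters, other scalings, variance prior, sample weights, threshold, a replicate block, limma-voom on recovered reads, and each library left out. Scaling to total reads was added after seeing the data, as were array weights and the threshold of 0.05 for the histone-handling lists. A further marker of another cell type is not reported here.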

Additional observations from a re-analysis of the deposited data

How the results depend on the processing

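The number of calls depended on the processing more than the fold changes did. Clustered genes called lower, 29 in the reported fit, numbered 58 with array quality weights, 11 without a filter on low values, 18 after quantile normalization, 51 at an adjusted p under 0.05, and between 3 and 45 with 1 library left out. Calls over all genes moved as well: 522 were called lower in the reported fit, 2257 with array weights, 1000 after quantile normalization, 297 of 24488 without a filter, and 156 to 726 with 1 library left out. Variants called lower, 1 in the reported fit, numbered 5 with array weights, 3 at an adjusted p under 0.05, 0 after quantile normalization or scaling to total reads, and 0 to 1 with 1 library left out; array weights called 1 variant higher. All histone genes called, 30 in the reported fit, numbered 64 with array weights, 12 without a filter, 18 after quantile normalization, 54 at an adjusted p under 0.05, and 3 to 46 with 1 library left out. Genes of the histone-handling lists called lower, 4 in the reported fit, numbered 21 with array weights, 8 with limma-voom, 2 without a filter, 12 after quantile normalization or scaling to total reads, 15 at an adjusted p under 0.05, and 0 to 7 with 1 library left out. The cause of these differences was not tested. No called result changed direction, and no clustered gene was called higher under any of these alternatives; HIST1H3E, not called, changed sign, and 58 to 61 clustered genes lay below 0.

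With the replicate number as a replicate block, 34 clustered genes were called lower, and of all genes tested 786 were called lower and 916 higher, against 522 and 700 without it. Deviations of same-numbered samples correlated at 0.27, 0.0889 and 0.124, and not every sample correlated best with its own number, so the numbers were not taken to pair the samples.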
